A study of Arabidopsis thaliana with 6 samples.

Results

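WRKY proteins are plant transcription factors named for the short amino acid motif of their DNA-binding domain, which recognises W-box elements in promoters. Many of their genes respond quickly to pathogens, wounding, salicylate and leaf ageing, and several members regulate the genes of other members. The probe sets described here are those whose platform annotation gives a single gene symbol made of WRKY and a number. The rule found 6 of the 22746 probe sets tested, for WRKY6, WRKY20, WRKY22, WRKY42, WRKY47 and WRKY53, 1 probe set each. They are 6 of the 13356 genes with a single-gene probe set. RefSeq lists 72 Arabidopsis genes with such a symbol or synonym. Of these, 7 have a single-gene probe set in the annotation used here, and the seventh, ZAP1 (also called WRKY1), lies outside the rule by its symbol. The other 65 family genes were not analysed here, so the counts below describe these 6 genes and not the family.

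The study compared whole Arabidopsis thaliana seedlings of actin2-5, a mutant of the vegetative actin gene ACT2 whose samples are also titled wavy, with wild type of the Columbia ecotype. Each genotype has 3 biological replicates, each on 1 Affymetrix ATH1 array. All seedlings were 8 days old and were raised on diluted Murashige and Skoog medium. The labels give no ecotype for actin2-5 and do not say how many seedlings went into a sample. By its title the series concerns actin in auxin and brassinosteroid responses.

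Values are log2 expression values, on which a difference of 1 is a doubling. Array medians lay between 6.42 and 6.46, and lower quartiles between 4.49 and 4.58. A control probe set for 25S ribosomal RNA stood apart, reading 10.63, 7.75 and 9.82 on actin2-5 arrays 1, 2 and 3 and 8.13 to 8.21 on the wild-type arrays. The annotation used here names no probe set for ACT2. The 6 actin control probe sets differed by -0.01 to 0.08 between the genotypes (actin2-5 minus wild type, log2; lowest limma adjusted p = 0.725), but which actin gene they read is not stated there, so the genotype labels were not checked on the mutated gene. In whole seedlings, more cells that express a gene and more RNA per cell cannot be told apart.

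Of the 6 WRKY genes, WRKY53, WRKY22 and WRKY47 rose in actin2-5, by 2.48-fold, 1.84-fold and 1.52-fold, and 0 fell. A gene is said to rise or fall where limma's adjusted p, taken over all probe sets tested, was under 0.05. By this rule 3.3% of all probe sets changed and 2.18% rose, against 3 of these 6, while 1.11% fell, against 0 of 6. WRKY6, WRKY20 and WRKY42 did not pass. The median log2 difference of the 6 genes was 0.41 (actin2-5 minus wild type), against -0.03 over all probe sets tested.

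WRKY53 encodes a group III WRKY factor that acts in leaf senescence and responds to hydrogen peroxide and salicylate. Its probe set read 7.25, 7.36 and 7.86 on actin2-5 arrays 1, 2 and 3, and 5.61, 6.56 and 6.37 on wild-type arrays 1, 2 and 3. All mutant arrays lay above all wild-type arrays, with wild-type array 1 the lowest of the 6. The means were 7.49 ± 0.33 and 6.18 ± 0.50 (SD, n = 3 each). The log2 difference was 1.31 ± 0.23 (SE, 95% interval 0.80 to 1.82; limma adjusted p = 0.012), and 60 probe sets of the whole array had a larger increase. The gap between the lowest mutant and the highest wild-type array, 0.69, was smaller than the range of 0.95 within wild type.

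WRKY22 encodes a group IIe factor placed downstream of the MAP kinase cascade that bacterial flagellin triggers. It read 6.79, 6.92 and 7.25 in actin2-5 and 5.78, 6.33 and 6.22 in wild type, for arrays 1 to 3 of each group. Again the groups did not overlap, and the arrays fell in the same order as for WRKY53 within both groups. The log2 difference was 0.88 ± 0.16 (SE, 95% interval 0.53 to 1.22; limma adjusted p = 0.0127). The means were 6.99 ± 0.24 and 6.11 ± 0.29 (SD, n = 3 each), and the gap between the groups was 0.46.

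WRKY47, WRKY6 and WRKY42 belong to group IIb. Of these 3 genes 1 passed, against 3.3% of all probe sets, too few genes to describe the group. WRKY47 read 8.30, 8.30 and 8.28 in actin2-5 and 7.60, 7.92 and 7.56 in wild type. The mutant arrays thus spanned 0.02 and the wild-type arrays 0.36, and the groups did not overlap. The order of the arrays differed from that of WRKY53 and WRKY22: actin2-5 array 3, the highest for those genes, was the lowest mutant array for WRKY47. The log2 difference was 0.60 ± 0.10 (SE, 95% interval 0.37 to 0.83; limma adjusted p = 0.0115).

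WRKY6 encodes a factor of senescence and defence that also represses the phosphate exporter gene PHO1. It read 7.99, 8.03 and 8.03 in actin2-5 and 7.76, 7.79 and 7.87 in wild type. The groups did not overlap, but the log2 difference of 0.21 ± 0.08 (SE, 95% interval 0.03 to 0.39) missed the threshold (limma adjusted p = 0.227; unadjusted p = 0.0236). WRKY42, which likewise represses PHO1, was dim, at 4.63, 4.71 and 4.65 in actin2-5 and 4.48, 4.66 and 4.72 in wild type. The groups overlapped, and all 6 values lay close to the lower quartiles of the arrays, where the processing understates differences. Its log2 difference was 0.04 ± 0.09 (SE, 95% interval -0.16 to 0.24; limma adjusted p = 0.876), and the sign turned to -0.03 without wild-type replicate 1.

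WRKY20 encodes a group I factor, a class with a pair of WRKY domains. It read 7.89, 7.91 and 7.92 in actin2-5 and 7.85, 7.83 and 7.76 in wild type, groups separated by 0.04. The log2 difference was 0.09 ± 0.08 (SE, limma adjusted p = 0.638). Its 95% interval ran from -0.08 to 0.27, with the upper end at a fold change of 1.203. ZAP1, outside the rule, was at -0.03 ± 0.11 (limma adjusted p = 0.927), a sign that turned when actin2-5 replicate 3 or wild-type replicate 2 or 3 was left out.

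**Figure D1:**
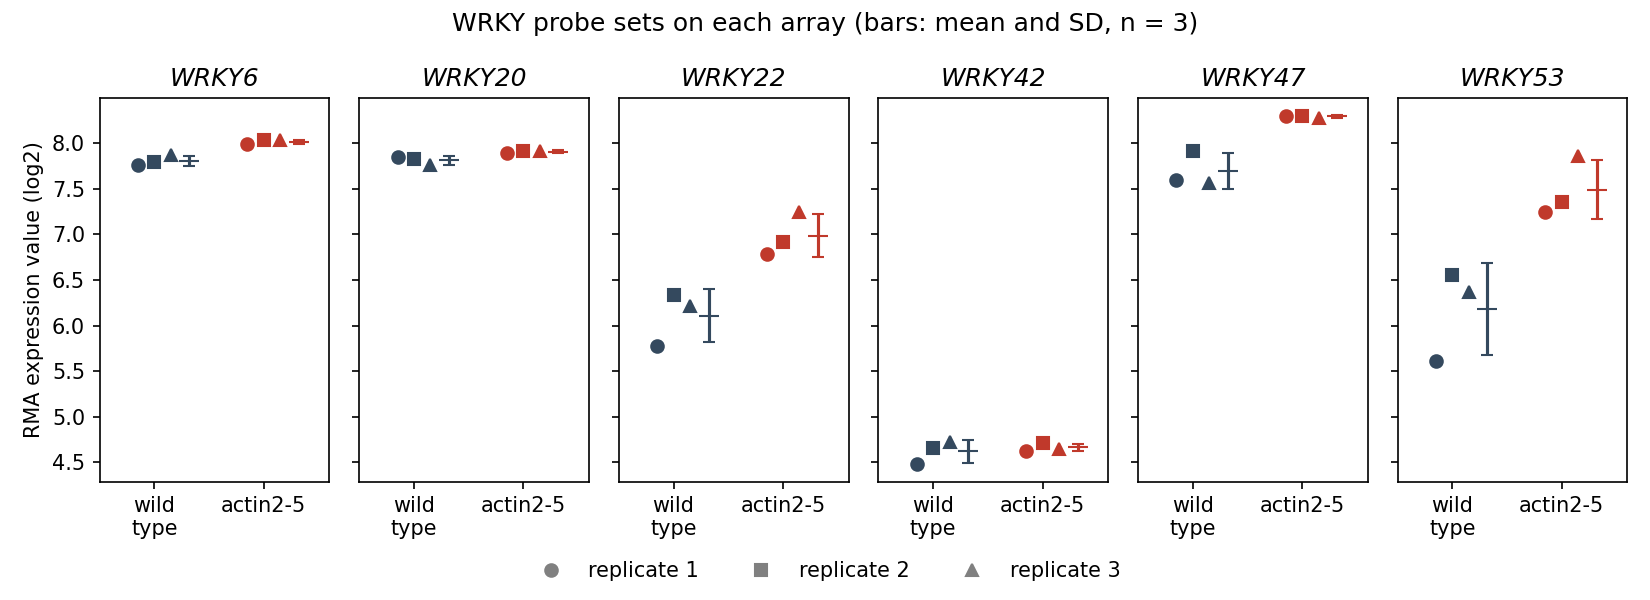
Log2 expression value of each WRKY probe set (vertical axis) on the 3 wild-type and 3 actin2-5 arrays, with symbols for the replicate number and bars for the mean and SD (n = 3). The groups do not overlap for 5 of the 6 genes, and levels of different probe sets cannot be set against each other because each has its own response.

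Without overlap between the groups, 5 of the 6 genes were higher in actin2-5, where 8.35% of all probe sets were. WRKY42 was the exception. Taken in either direction, 19.2% of all probe sets had groups that did not overlap. For WRKY20 and WRKY6 the separation came with small differences and a narrow spread within the groups, since SDs were 0.02 in actin2-5 for both genes and 0.05 and 0.06 in wild type. The wild-type SD was the larger one for all 6 genes, which were read on the same arrays. The share of all probe sets with a larger wild-type SD was not computed.

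**Figure D2:**
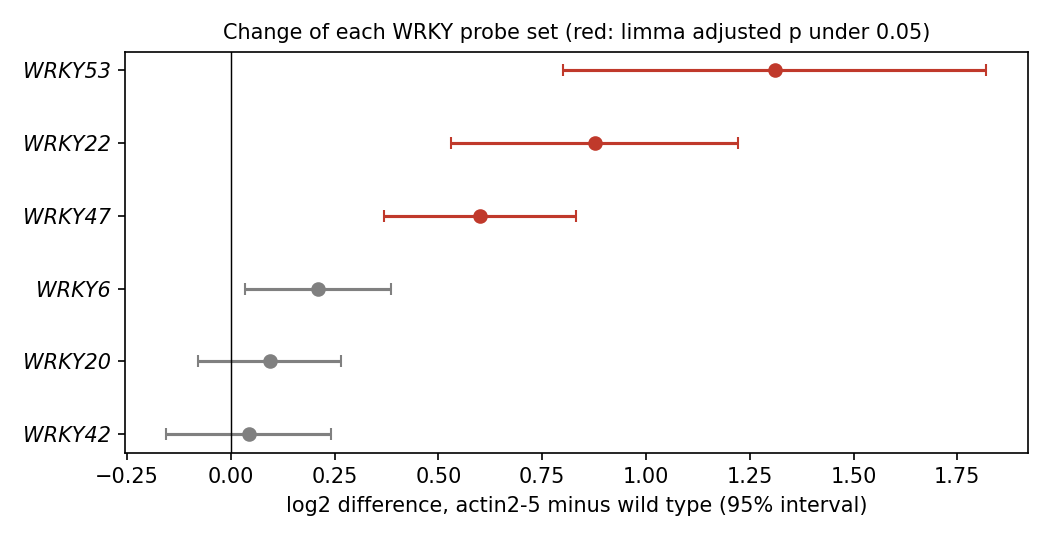
Log2 difference, actin2-5 minus wild type, of each WRKY gene with its 95% interval from the limma fit (n = 3 per group). WRKY53, WRKY22 and WRKY47 (red) passed an adjusted p of 0.05, and the intervals of WRKY20 and WRKY42 include 0.

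The members' changes were set against each other by the difference between each of 15 pairs of members within an array. The change of WRKY53 exceeded that of WRKY22 by 0.43 on the log2 scale, that of WRKY47 by 0.71 and that of WRKY6 by 1.10. Within arrays, the log2 difference of WRKY53 to WRKY22 was 0.44 to 0.61 in actin2-5 and -0.17 to 0.23 in wild type, so the groups did not overlap. WRKY47 exceeded its group IIb relatives WRKY6 by 0.39 and WRKY42 by 0.56, again without overlap. WRKY42 lay close to the lower quartiles of the arrays, where its own change may be understated. For WRKY22 against WRKY47 the excess was 0.28, and the groups overlapped. With 3 arrays against 3 the two-sided exact permutation test cannot go below 0.1 (0.125 as the lowest value adjusted over the 15 pairs). It gave 0.1 for 12 of the 15 pairs, so a lack of overlap does not mark out the pairs named. The share over pairs of other probe sets was not computed. These values describe the arrays and do not show that any members changed unequally.

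The calls of the 3 genes depended on the arrays used. Without actin2-5 replicate 2, 0 of the 6 genes passed in limma, with adjusted p-values of 0.052 for WRKY53, 0.0593 for WRKY22 and 0.0695 for WRKY47. Of all probe sets 1.27% then passed; an unadjusted p under 0.05 was found for 3 of 6 members and for 10.4% of all probe sets. Without actin2-5 replicate 3 the adjusted p-values were 0.0612, 0.0658 and 0.0599, with 0 of 6 members and 1.35% of all probe sets passing, and 3 of 6 and 10.6% at an unadjusted p under 0.05. The log2 differences were then 1.375 and 1.125 for WRKY53, 0.91 and 0.745 for WRKY22, and 0.60 and 0.61 for WRKY47. Leaving out any other single array kept WRKY53, WRKY22 and WRKY47 as the genes that passed.

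The 25S control signal was high on 2 of the mutant arrays, and the differences were examined beside it. On actin2-5 array 2, where it was low, the values exceeded the wild-type mean by 1.18 for WRKY53, 0.81 for WRKY22 and 0.61 for WRKY47. With the 25S value as a covariate the log2 differences were 1.298 ± 0.301, 0.89 ± 0.21 and 0.61 ± 0.14 (SE). The adjusted p-values in limma were 0.0978, 0.0978 and 0.095, so 0 of 6 passed, against 1.24% of all probe sets, and 3 of 6 had an unadjusted p under 0.05, against 10.8%.

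**Figure D3:**
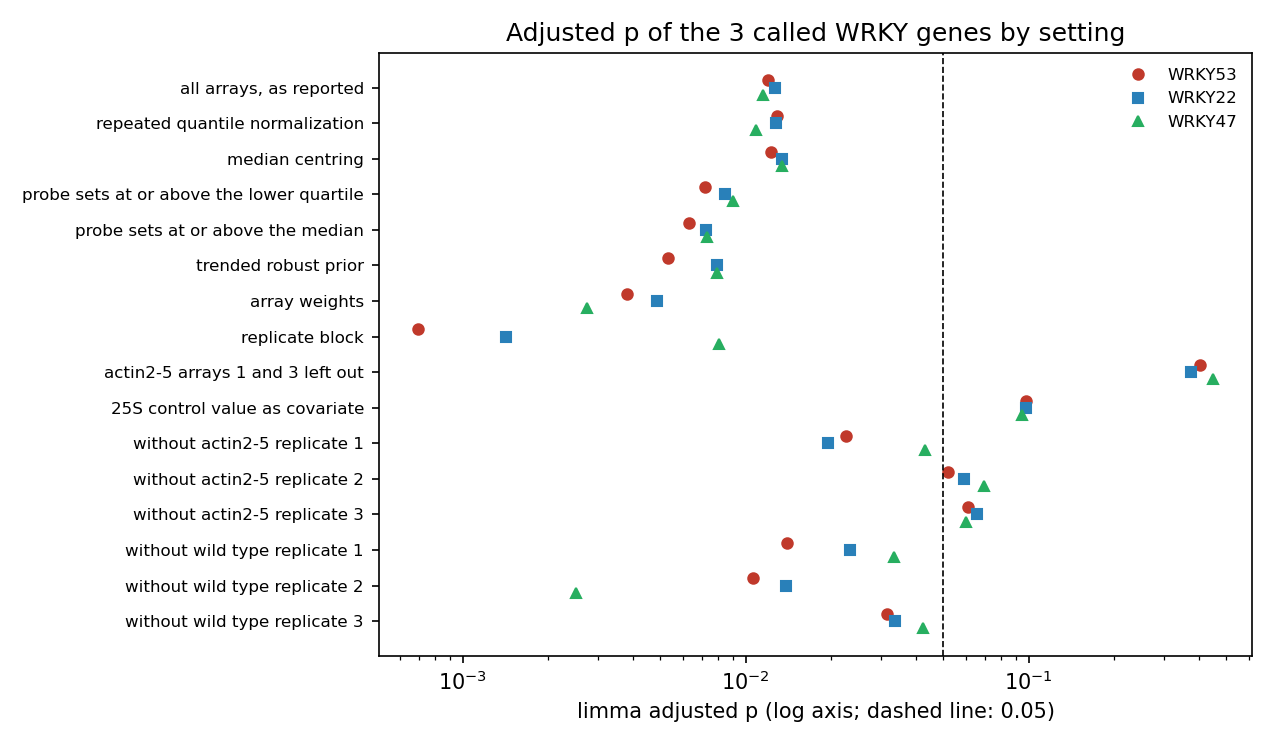
Adjusted p from limma (horizontal log axis) for WRKY53, WRKY22 and WRKY47 under each setting, with a dashed line at 0.05. The 3 genes pass or miss the threshold together in every setting shown, and they miss it in 4 of the 15 alternatives. With all arrays their unadjusted p-values in limma were close (0.000183, 0.000203 and 0.000171). Passing or missing together therefore does not show that they respond alike.

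Genes that act with WRKY factors were mostly not measured under a name. Of 15 listed upstream kinases and partner proteins, 0 have a probe set named here. Of 21 genes described as WRKY targets, 1 does, SAG101, which encodes a lipase-like regulator of senescence and immunity. SAG101 read 5.03, 5.27 and 5.24 in actin2-5 and 4.39, 4.52 and 4.70 in wild type, without overlap. Its wild-type values, like those of WRKY42, lay close to the lower quartiles. It rose by a log2 difference of 0.64 ± 0.11 (SE; limma adjusted p = 0.00843). That call was lost without actin2-5 replicate 2 or 3 (adjusted p = 0.0638 and 0.0576) and without actin2-5 arrays 1 and 3 together (adjusted p = 0.211), and it held with the 25S covariate (adjusted p = 0.0358).

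Markers of tissue and age were read in the same arrays. Of 5 listed senescence markers 1 was measured: SAG29, the sugar transporter gene SWEET15, read 5.53 to 5.79 in actin2-5 and 6.81 to 7.11 in wild type. SAG29 fell by 1.27 ± 0.11 (SE; limma adjusted p = 0.000168), the opposite direction to WRKY53 and SAG101. With 1 marker measured, whether senescence differed between the genotypes was not tested. The mean log2 value over the 4 measured of 7 leaf markers was 13.11 to 13.18 in actin2-5 and 13.15 to 13.29 in wild type. Of these 4 leaf genes 0 passed in limma, against 3.3% of all probe sets, and 0 had an unadjusted p under 0.05, against 15.3%. One of them, RCA, read 13.86 to 14.08, where the highest value of an array was 14.10 to 14.15. Whether differences are understated at such high levels was not tested.

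The mean over the 4 measured of 7 root markers was 9.09 to 9.15 in actin2-5 and 9.40 to 9.79 in wild type. In this list the root hair expansin genes EXPA7 and EXPA18 fell by 0.86 ± 0.14 and 0.95 ± 0.15 (SE; limma adjusted p = 0.00909 and 0.00636). EXPA7 missed the threshold without actin2-5 replicate 2 or 3 (adjusted p = 0.0545 and 0.0576), and both genes missed it with the 25S covariate (adjusted p = 0.0769 and 0.062) and without actin2-5 arrays 1 and 3 together (adjusted p = 0.394 and 0.356). The root genes PYK10 and NAI2 were at 0.09 and -0.27 and did not pass (unadjusted p = 0.0292 for NAI2). In the root list 2 of 4 genes thus fell, against 1.11% of all probe sets. Of the 4 genes, 3 had an unadjusted p under 0.05 in limma, against 15.3% of all probe sets. The measured leaf and root markers lay above the lower quartile on all arrays. The part of these differences in the WRKY values was not tested.

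The genes next to the members were examined for changes in the same direction. The nearest named gene on each side of each member, 12 in all, was the adjacent protein-coding gene in 8 cases and up to 5 genes away in the rest, in RefSeq's gene order. Their log2 differences ran from -0.13 to 0.27, and 0 of 12 passed in limma, near the 3.3% of all probe sets, with 2 of 12 at an unadjusted p under 0.05, near the 15.3% of all probe sets. The neighbours of WRKY53, AT4G23800 and AT4G23820, were at -0.05 and 0.03. Those of WRKY22, AT4G01240 and AT4G01270, were at 0.10 and -0.03. WRKY47 lies beside CRK, the gene CROOKED that encodes a subunit of the actin-nucleating ARP2/3 complex, which was at 0.22 (limma adjusted p = 0.246), and beside AT4G01730, at 0.03.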

How the data were processed

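Total RNA (4 µg per sample, per the labels' protocols) was the starting material for the ATH1 arrays. The authors summarised each probe set to a log2 value with RMA in affy, per the submitters' processing notes, and deposited these values; no version or chip definition is stated there. RMA equalises the arrays' distributions and understates changes of dim probe sets. The number of arrays, 3 per group, limits the precision.

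Of 22810 probe sets, 64 AFFX controls were left out (control values come from a fit that kept them). Of the 22746 tested, 13513 have 1 gene symbol. RefSeq's TAIR10.1 table gave loci, synonyms and gene order. As no source names the build behind the files, no coordinates are printed.

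The genotypes were tested in R 4.3.3 by limma 3.58.1, using lmFit and eBayes (two-sided, Benjamini-Hochberg adjustment over all probe sets tested). The fit was repeated with other thresholds, with arrays left out, with a 25S covariate or replicate block, with array weights or a trended prior, after quantile normalization or median centring, and without dim probe sets. Figures used matplotlib 3.10.9 in Python 3.11.15. The rule for named genes takes all members and up to 4 genes of each list by smallest p; ZAP1 and the neighbouring genes were added after values were seen, as were the tests on pairs of members. Members, lists and alternatives were chosen with earlier results of these data known. WRKY structural groups are those of the standard classification and were not checked on sequence; WRKY proteins and promoter W-boxes were not analysed here.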

Additional observations from a re-analysis of the deposited data

Results flagged for a closer look

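The 25S ribosomal RNA control probe set, which is outside the comparison of genes, averaged 1.22 higher on the log2 scale in actin2-5 than in wild type (limma adjusted p = 0.321, in a fit with the control probe sets). It drew attention because 2 of the 3 mutant arrays read above all wild-type arrays. Its part in the WRKY differences was not tested beyond the covariate and the values of actin2-5 array 2.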

How the results depend on the processing

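The 15 refits of each member kept the sign of WRKY53, WRKY22, WRKY47, WRKY6 and WRKY20, and WRKY53, WRKY22 and WRKY47 each passed in 11 of 15. Passing WRKY genes numbered 0 with the 25S covariate, without actin2-5 arrays 1 and 3, and at adjusted p under 0.01; limma found 3 of 6 at an unadjusted p under 0.05 in each of those first 2 fits (10.8% and 6.46% of all probe sets) and 4 of 6 in the last (15.3%). All probe sets called then numbered 283, 103 and 323, and 1210 at adjusted p under 0.1. With the 25S covariate the log2 differences of WRKY53, WRKY22 and WRKY47 were 1.298, 0.888 and 0.607, and without actin2-5 arrays 1 and 3 they were 1.18, 0.81 and 0.6067 (adjusted p = 0.405, 0.376 and 0.448); in that fit the lone actin2-5 array is taken to vary as the wild-type arrays do. Leaving out 1 array gave 0 to 3 WRKY genes, 290 to 896 probe sets, and log2 differences of 1.025 to 1.5 for WRKY53, 0.71 to 0.99 for WRKY22, 0.53 to 0.71 for WRKY47, -0.0267 to 0.0933 for WRKY42 and -0.155 to 0.035 for ZAP1, where 0.0067, 0.035 and 0.02 have the turned sign. Fewer arrays or residual degrees of freedom and the stricter threshold are built into these settings; other causes were not tested. With the replicate block the 3 genes passed (adjusted p = 0.000696, 0.00142 and 0.00804) and 907 probe sets were called. Same-number deviations correlated at 0.0619, 0.0866 and 0.0833, and each array correlated best with its own number. These correlations are weak and were not tested, so they do not show that replicates were paired. The filter at the median leaves WRKY42, SAG101 and SAG29 untested.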
